A study of Mus musculus with 24 samples.

Results

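The 10 early postmitotic neuron genes described here are Tubb3, Map2 (listed under its older symbol Mtap2), Stmn2, Ina, Nefl, Nefm, Elavl3, Elavl4, St18 and Myt1, and all 10 were found among the 23119 genes of the deposited table. They were named as a set, with earlier results of these data known, and looked up by symbol. Tests of the members, and their counts against all tested genes, are thus not independent of that choice. St18 was selected on its measured values, a peak at day 9 and a lower level in KO, so it is described here with no test, and tests are given for the other 9 genes. RNA-seq was performed by the authors on poly(A) RNA of JB4/EI7HZ2 cells, an F1-hybrid female mESC line (JF1 mother, B6 father) with drug-resistance genes on both X chromosomes, and of a SmcHD1-mutant (KO) line derived from it by CRISPR–Cas9. WT and KO were each sampled as undifferentiated mESCs grown in 2i/LIF with serum, as neurectoderm cells at day 7 and day 9 of differentiation, through an epiblast-like step and then aggregates, and as neural stem cells (NSCs) derived by a separate protocol and expanded with FGF2 and EGF. G418 and Zeocin were in the mESC and NSC media to keep XX cells, and the paper does not list them for the day 7 and day 9 cultures. There were 3 replicates in each of the 8 groups, 24 libraries in all. Each genotype is 1 line, so an effect of the SmcHD1 mutation and another difference between the lines cannot be told apart, and day 9 and NSCs differ in protocol as well as in age.

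Neurons leave the cell cycle as they differentiate and then turn on genes for a neuronal cytoskeleton, for RNA-binding proteins that bind neuronal transcripts and for transcription factors that hold the neuronal programme. Tubb3 (class III β-tubulin) and the Hu proteins are among the earliest of these in the neural tube and are widely used to stain newborn neurons, while neurofilament proteins build up as axons grow. Smchd1 encodes a chromosomal protein of the SMC family that acts in X inactivation.

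Levels are the deposited FPKM, a read measure corrected for transcript length and for the size of the library. How well libraries of different make-up can be compared depends on the normalization, which is not given in the sources used here. Smchd1 itself read 12.96 to 26.4 FPKM over the 12 WT libraries and 1.82 to 4.40 over the 12 KO libraries, without overlap. Read totals are not given in the sources used here, so counting error cannot be stated, and the sum of FPKM per library ranged from 504660 to 802938. In KO at day 9, replicate 1 was the lowest of the 3 libraries for all 10 of the genes. Calls of the members against WT at day 9, and counts and medians of the neuronal lists, are also given without it. Replicate 3 of that group was the highest for 8. In WT at day 7, replicate 3 was the lowest for 8 of the 10 and replicate 1 the highest for 7. In mESCs, replicate 1 was the lowest for 6 of the 10 in WT and for 5 in KO, and replicate 2 was the highest for 6 and 7. Differences below are in log2(FPKM + 1), tested with limma across 12105 genes with a mean of at least 1 FPKM, and a gene is called where the adjusted p is under 0.05. The mean FPKM of all 10 genes passed that minimum, with St18 the lowest at 1.76.

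Values of single libraries are listed below in the order of replicates 1, 2 and 3. Tubb3 encodes the β-tubulin isotype of neuronal microtubules and lies on the plus strand of chromosome 8 in mm9 (125935464 to 125945910). In WT, the Tubb3 libraries read 16.8, 59.9 and 38.7 FPKM in mESCs, 55.0, 45.2 and 41.1 on day 7, 345, 375 and 363 on day 9 and 5.75, 21.6 and 18.7 for NSCs. In KO, the values were 20.3, 50.7 and 34.6 FPKM in mESCs, 84.1, 87.6 and 70.0 on day 7, 180, 244 and 272 on day 9 and 7.15, 9.72 and 8.48 for NSCs. Day 9 libraries of both genotypes stood above all others, those of WT highest, and the mESC libraries were more spread out than those of day 7. At day 9 Tubb3 was the most abundant of the 10 genes per length in both genotypes.

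Map2 encodes a microtubule-associated protein of dendrites (chromosome 1, plus strand, 66221903 to 66489157). Map2 FPKM in WT was 3.75, 3.39 and 3.45 in mESCs, 2.14, 2.096 and 1.68 on day 7, 24.3, 18.5 and 15.3 on day 9 and 137, 146 and 120 for NSCs. KO libraries read 3.58, 3.71 and 3.28 FPKM in mESCs, 3.05, 2.62 and 3.26 on day 7, 19.2, 22.6 and 26.1 on day 9 and 127, 162 and 135 for NSCs. Map2 thus went against the name of the set: its NSC libraries were the highest by far, with WT and KO overlapping there, at day 9 and in mESCs.

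Stmn2 (stathmin 2, also called SCG10) encodes a microtubule-destabilizing protein of growth cones (chromosome 3, plus strand, 8509527 to 8561604). WT libraries had 135, 156 and 118 FPKM of Stmn2 in mESCs, 91.7, 69.8 and 66.7 on day 7, 108, 117 and 111 on day 9 and 0, 0.630 and 0.519 for NSCs. The KO values were 125, 137 and 110 FPKM in mESCs, 63.1, 85.6 and 76.3 on day 7, 62.8, 64.6 and 66.8 on day 9 and 0 in all 3 for NSCs. Its highest libraries were mESCs, not differentiated cells, and in NSCs it was listed at 0 in 4 of 6 libraries. Stmn2 transcripts in mESCs were more abundant per length than those of any other member in any mESC library.

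The neurofilament subunits form the intermediate filaments of axons: Nefl encodes the light chain, Nefm the medium chain, and Ina α-internexin, which joins them in young neurons. Nefl and Nefm are neighbours on chromosome 14 on opposite strands (68701941 to 68705794 and 68737602 to 68749428). In WT, the Nefl libraries read 29.2, 78.3 and 53.9 FPKM in mESCs, 9.45, 9.24 and 7.97 on day 7, 151, 191 and 180 on day 9 and 1.06, 0.298 and 0.295 for NSCs. In KO, the values were 39.8, 69.0 and 53.2 FPKM in mESCs, 10.6, 12.4 and 8.88 on day 7, 50.7, 56.5 and 68.7 on day 9 and 0.581, 0.416 and 0.995 for NSCs. Nefl was thus also high in mESCs, where the KO libraries overlapped those of KO at day 9, and it was lowest in NSCs.

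Nefm FPKM in WT was 9.26, 22.1 and 13.1 in mESCs, 7.35, 6.49 and 4.66 on day 7, 134, 197 and 166 on day 9 and 2.01, 0.590 and 0.408 for NSCs. KO libraries read 17.3, 25.6 and 12.5 FPKM in mESCs, 7.55, 8.86 and 7.47 on day 7, 48.0, 58.5 and 75.5 on day 9 and 2.21, 1.92 and 2.01 for NSCs. Nefm had the same order of stages as Nefl in WT and in KO, at a lower level in mESCs. The ratio of Nefl to Nefm FPKM was 3.6 ± 0.48 (SD, n = 3) in WT mESCs, 1.47 ± 0.216 at WT day 7 and 1.06 ± 0.0785 at WT day 9, and the KO ratios were 3.09 ± 1.04, 1.33 ± 0.122 and 0.977 ± 0.0737. The entry of Nefm overlaps that of A230070E04Rik, and reads of 1 could have been counted for the other.

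WT libraries had 0.653, 8.07 and 2.79 FPKM of Ina in mESCs, 9.38, 6.80 and 5.20 on day 7, 61.6, 61.1 and 51.6 on day 9 and 2.31, 4.51 and 3.78 for NSCs. The KO values were 1.37, 3.90 and 2.41 FPKM in mESCs, 17.1, 15.1 and 12.4 on day 7, 23.7, 35.2 and 42.7 on day 9 and 5.09, 3.82 and 3.92 for NSCs. Ina had its highest libraries at day 9 and, unlike Nefl and Nefm, more at day 7 than in mESCs on average. The entry of Ina in the table (chromosome 19, 46961321 to 47098836) reaches far beyond the annotated gene (47089188 to 47099817, plus strand) and overlaps Nt5c2, so reads of Nt5c2 could have been counted for it. Nt5c2 itself read between 8.51 and 14.7 FPKM over all 24 libraries.

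Elavl3 and Elavl4 encode the Hu proteins HuC and HuD, which bind and stabilize neuronal transcripts. Elavl3 lies on chromosome 9 (21819449 to 21856467) and Elavl4 on chromosome 4 (109876342 to 110024516), both on the minus strand. In WT, the Elavl3 libraries read 0.915, 1.40 and 0.792 FPKM in mESCs, 3.63, 3.07 and 2.53 on day 7, 35.9, 42.8 and 39.0 on day 9 and 1.06, 4.81 and 5.82 for NSCs. In KO, the values were 0.493, 1.19 and 0.781 FPKM in mESCs, 7.28, 8.06 and 5.25 on day 7, 18.7, 22.2 and 26.5 on day 9 and 3.30, 3.72 and 5.31 for NSCs. Day 9 libraries again stood above the rest, and KO day 7 libraries lay above those of WT day 7.

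Elavl4 FPKM in WT was 0.970, 0.978 and 0.995 in mESCs, 2.63, 3.28 and 4.16 on day 7, 49.6, 51.5 and 49.7 on day 9 and 2.19, 1.30 and 1.93 for NSCs. KO libraries read 1.13, 1.10 and 0.794 FPKM in mESCs, 2.25, 2.11 and 3.09 on day 7, 17.6, 25.8 and 25.8 on day 9 and 1.94, 1.07 and 1.16 for NSCs. In WT at day 9 the 3 Elavl4 libraries lay within 2 FPKM of each other, and the KO libraries were all below them. Elavl4 differed from Elavl3 at day 7, where its WT and KO libraries overlapped.

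St18 and Myt1 encode zinc-finger transcription factors of the same small family, and Myt1 is known to act in neuronal differentiation. St18 lies on chromosome 1 (6477312 to 6851021) and Myt1 on chromosome 2 (181498037 to 181562480), both on the plus strand. WT libraries had 0, 0 and 0.0385 FPKM of St18 in mESCs, 0.0955, 0.0736 and 0.116 on day 7, 9.68, 8.98 and 9.94 on day 9 and 0.0690, 0 and 0.0320 for NSCs. The KO values were 0, 0.0373 and 0.0428 FPKM in mESCs, 0.120, 0 and 0.113 on day 7, 2.85, 5.10 and 4.85 on day 9 and 0.0380, 0 and 0.0325 for NSCs. St18 was close to 0 in every library outside day 9, and at day 9 the mean of the KO libraries was 44.7% of the WT mean, with no overlap. These are the values for which St18 was chosen, so they are a description only.

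In WT, the Myt1 libraries read 0 FPKM in all 3 in mESCs, 0.241, 0.437 and 0.210 on day 7, 13.3, 12.2 and 11.1 on day 9 and 3.42, 15.9 and 14.2 for NSCs. In KO, the values were 0 FPKM in all 3 in mESCs, 0.422, 0.407 and 0.569 on day 7, 6.54, 7.89 and 10.7 on day 9 and 8.90, 11.3 and 11.6 for NSCs. Myt1 was listed at 0 in all 6 mESC libraries, and its NSC libraries overlapped those of day 9, which those of St18 did not. In WT NSCs, replicate 1 lay far below the other two, as it did for Tubb3 and Elavl3.

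**Figure D1:**
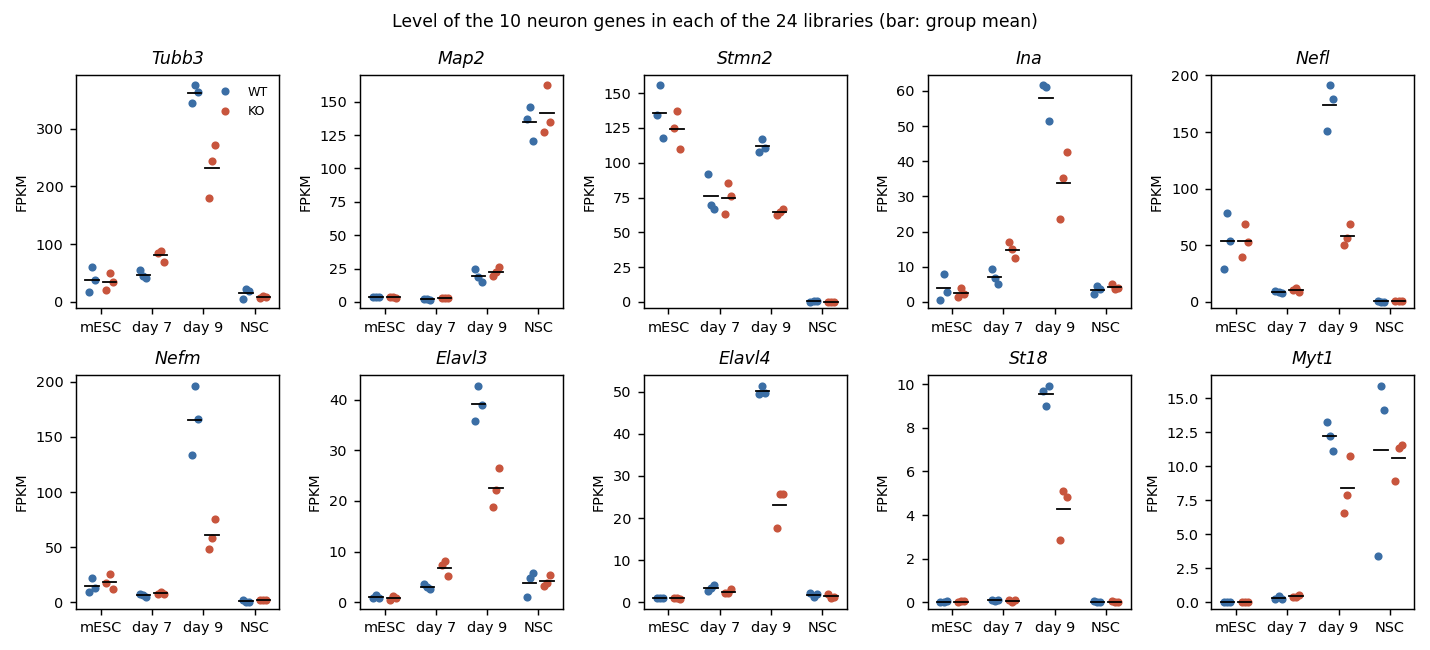
FPKM (vertical axis, linear) of each of the 10 genes by stage, with 1 point per library (blue, WT; red, KO) and a bar at the mean of 3 libraries. Day 9 is the highest stage in both genotypes for 7 of the 10, while Map2 peaks in NSCs, Stmn2 in mESCs and, in KO, Myt1 in NSCs.

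Promoters of 6 members (Tubb3, Map2, Ina, Elavl3, Elavl4 and Myt1) were found among RefSeq promoter windows of GRCm38.p6, each 300 bases from 250 before to 50 after a start, in 11 windows; Stmn2, Nefl, Nefm and St18 were not matched. The windows were searched for the E-box hexamers CAGCTG, which reads alike on both strands, and CAGATG on both strands, since basic helix-loop-helix proneural factors bind E-boxes. CAGCTG was in 4 of the 11 windows, those of 3 genes (Elavl3, Elavl4 and Ina), and in 16.3% of all 32851 windows. CAGATG was in 3 of the 11 windows, of Elavl4 alone, and in 17.2% of all windows. Below are the windows of the 3 genes with CAGCTG, all from genes whose KO libraries lay below those of WT at day 9, and that of Map2, which had neither hexamer and whose libraries overlapped there. Both hexamers are in capitals; they lie 43 bases before the start in Elavl3, 46 (CAGCTG) and 39 (CAGATG) before it in the Elavl4 window shown, and 135 before it in Ina. The windows of Tubb3 and Myt1, whose KO libraries also lay below those of WT, had neither hexamer. The matches are letters in a window and are not evidence of binding.
Elavl3 promoter, chr9:22051974-22052273, minus strand: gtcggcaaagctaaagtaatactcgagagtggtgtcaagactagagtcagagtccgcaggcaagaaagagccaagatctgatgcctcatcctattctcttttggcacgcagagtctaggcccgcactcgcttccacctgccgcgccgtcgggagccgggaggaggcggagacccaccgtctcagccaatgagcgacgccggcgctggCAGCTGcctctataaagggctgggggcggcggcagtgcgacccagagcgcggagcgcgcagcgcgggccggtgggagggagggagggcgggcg
Elavl4 promoter, chr4:110287478-110287777, minus strand: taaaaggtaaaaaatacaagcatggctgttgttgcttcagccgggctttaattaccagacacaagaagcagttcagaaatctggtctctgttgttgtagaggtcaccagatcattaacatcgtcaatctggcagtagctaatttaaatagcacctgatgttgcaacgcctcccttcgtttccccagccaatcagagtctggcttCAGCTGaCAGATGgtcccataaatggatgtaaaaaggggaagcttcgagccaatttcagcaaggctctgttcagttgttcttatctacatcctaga
Ina promoter, chr19:47014431-47014730, plus strand: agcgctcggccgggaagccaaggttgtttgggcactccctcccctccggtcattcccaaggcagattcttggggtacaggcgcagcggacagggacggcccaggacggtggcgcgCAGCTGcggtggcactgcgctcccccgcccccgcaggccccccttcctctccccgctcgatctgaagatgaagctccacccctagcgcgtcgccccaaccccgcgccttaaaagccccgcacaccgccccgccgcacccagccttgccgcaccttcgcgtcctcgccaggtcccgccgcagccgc
Map2 promoter, chr1:66175079-66175378, plus strand: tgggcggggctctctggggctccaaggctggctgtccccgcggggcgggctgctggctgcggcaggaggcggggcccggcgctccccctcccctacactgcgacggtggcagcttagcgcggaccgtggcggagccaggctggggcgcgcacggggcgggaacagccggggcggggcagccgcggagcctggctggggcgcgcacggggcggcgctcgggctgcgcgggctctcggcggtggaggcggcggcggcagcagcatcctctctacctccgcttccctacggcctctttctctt

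From day 7 to day 9 in WT, all 9 tested members rose, against 18.5% of all tested genes called higher and 15.3% called lower. The median of the 9 differences was 3.31 on the log2 scale (0.01 over all tested genes). Nefm rose most, by 4.54 ± 0.29 (SE, limma adjusted p = 1.69e-10), and Nefl by 4.14 ± 0.26, while Stmn2 rose by 0.56 ± 0.16 (limma adjusted p = 0.00768), a call lost with 0.1 FPKM added (limma adjusted p = 0.354). In KO, 8 of the 9 rose, against 17.2% called higher and 13.4% called lower, with a median of 2.36. Elavl4 rose by 2.78 ± 0.17 (limma adjusted p = 1.96e-10) and Nefm by 2.76 ± 0.29 in KO. Stmn2 did not pass the test there (−0.20 ± 0.16, limma adjusted p = 0.352), with KO day 7 and day 9 libraries overlapping. The call of Ina in KO (1.11 ± 0.41, limma adjusted p = 0.0443) was lost on leaving out any of 5 of the 6 libraries compared, each of KO day 7 and replicates 2 and 3 of KO day 9, and also with 0.1 FPKM added and with no filter on low values, with adjusted p up to 0.154 over all alternatives.

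From mESCs to day 7 calls in the set went in both directions, as did those among all tested genes. In WT, Elavl4 (1.12 ± 0.17, limma adjusted p = 1.06e-05), Elavl3 (1.00 ± 0.30) and Ina (1.05 ± 0.41) rose, whereas Nefl (−2.37 ± 0.26, limma adjusted p = 1.12e-07), Nefm (−1.08 ± 0.29), Stmn2 (−0.83 ± 0.16) and Map2 (−0.61 ± 0.14) fell. In all tested genes, 29.1% were called higher and 30.2% lower. The call of Ina (limma adjusted p = 0.0325) was lost without replicate 1 or 3 of WT mESCs or replicate 1 or 2 of WT day 7, and in a fit of the compared groups alone (limma adjusted p = 0.141). In KO, Tubb3 (1.26 ± 0.42, limma adjusted p = 0.015), Elavl3 (2.11 ± 0.30), Elavl4 (0.79 ± 0.17) and Ina (2.21 ± 0.41) rose and Nefl (−2.22 ± 0.26), Nefm (−1.06 ± 0.29) and Stmn2 (−0.73 ± 0.16) fell, against 29.5% of tested genes called higher and 31.8% lower. The call of Tubb3 in KO was lost without replicate 1 of KO mESCs. The calls of Stmn2 were lost with 0.1 FPKM added, in WT (limma adjusted p = 0.112) and in KO (limma adjusted p = 0.161). Myt1, listed at 0 in mESCs, was not called in WT (limma adjusted p = 0.311) or KO (limma adjusted p = 0.124), but was called higher at day 7 in both with 0.1 FPKM added and in fits of the compared groups alone.

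From day 9 to NSCs, 7 of the 9 fell in WT and 7 in KO, Tubb3, Elavl3, Elavl4, Stmn2, Ina, Nefl and Nefm in each. Nefl fell by 6.85 ± 0.26 on the log2 scale in WT (limma adjusted p = 5.51e-15) and by 5.17 ± 0.26 in KO, and with 0.1 FPKM added by 8.26 and 6.32, with its NSC libraries near or below 1 FPKM. Tubb3 fell by 4.65 ± 0.42 and 4.61 ± 0.42. Map2 rose instead, by 2.75 ± 0.14 in WT (limma adjusted p = 3.26e-13) and 2.59 ± 0.14 in KO. Myt1 did not pass the test in WT (−0.34 ± 0.31, limma adjusted p = 0.368) or KO (0.32 ± 0.31, limma adjusted p = 0.377), and without replicate 1 of WT NSCs the WT difference turned to 0.28, also not called. Of all tested genes, 24.8% were called higher and 30.3% lower in WT NSCs, and 27.2% and 32.4% in KO NSCs.

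**Figure D2:**
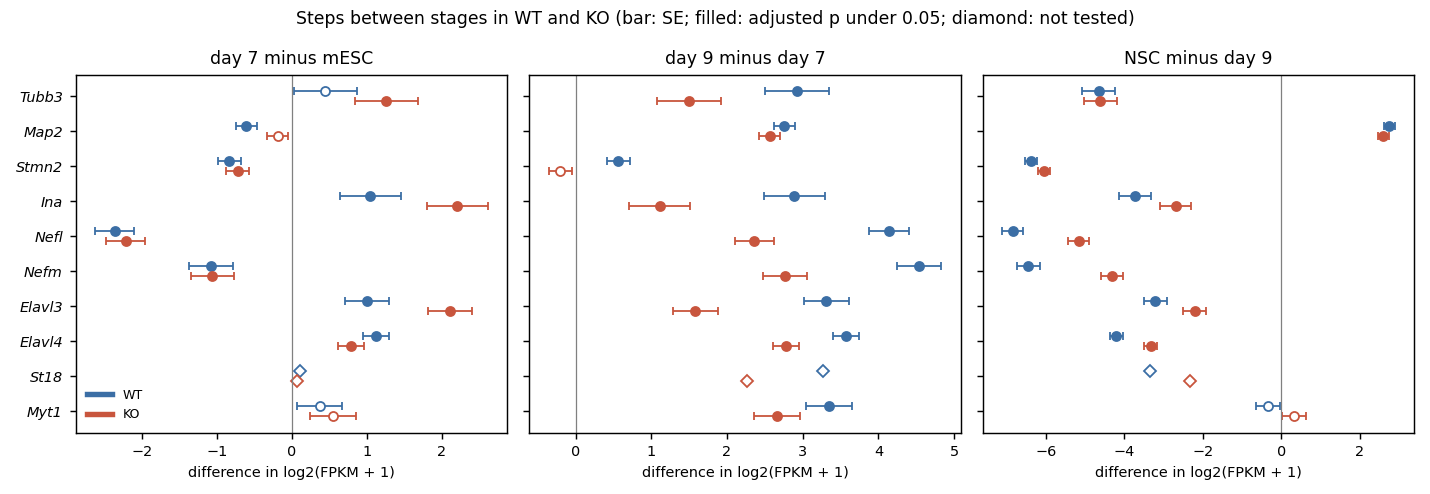
Difference in log2(FPKM + 1) between neighbouring stages (horizontal axis) for each gene, WT in blue and KO in red, with the SE as a bar, filled points for an adjusted p under 0.05 and diamonds for St18, which was not tested. The WT points of the day 9 minus day 7 step lie right of the KO points for all 10 genes; the positions of Myt1 against mESCs and of Stmn2 in KO NSCs, groups listed at 0, and of Nefl and Nefm in NSCs depend on the 1 FPKM added.

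In the comparison of KO with WT at day 9, Nefl, Nefm, Elavl4 and Stmn2 were called lower in KO and none of the 9 was called higher. Of all tested genes, 4.11% were called lower and 2.58% higher. The Nefl mean was 174 ± 20.8 FPKM (SD, n = 3) in WT and 58.6 ± 9.19 in KO, a difference of −1.56 ± 0.26 on the log2 scale (limma adjusted p = 0.000444). For Nefm the means were 165 ± 31.2 and 60.7 ± 13.9 FPKM (−1.44 ± 0.29, limma adjusted p = 0.00278). Elavl4 read 50.2 ± 1.07 FPKM in WT and 23.1 ± 4.72 in KO (−1.11 ± 0.17, limma adjusted p = 0.000192), and Stmn2 112 ± 4.58 and 64.7 ± 2.02 FPKM (−0.78 ± 0.16, limma adjusted p = 0.00233). In bulk samples like these, fewer neurons and less RNA per neuron cannot be told apart.

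The other 5 did not pass the test at day 9. Elavl3 (−0.79 ± 0.30, limma adjusted p = 0.135), Ina (−0.80 ± 0.41, limma adjusted p = 0.331), Tubb3 (−0.66 ± 0.42, limma adjusted p = 0.485) and Myt1 (−0.51 ± 0.31, limma adjusted p = 0.429) were lower in every KO library than in any WT library. Map2 alone had the opposite sign (0.23 ± 0.14, limma adjusted p = 0.458), and its libraries overlapped. Altogether the 3 KO libraries lay below the 3 WT libraries for 8 of the 9 genes, against 16.8% of all tested genes, and the median difference was −0.79 where that of all tested genes was 0. The spread in the test is shared over all 8 groups, and Tubb3, Ina and Elavl3 varied most in mESCs or WT NSCs. In a fit of the day 9 libraries alone, Tubb3 (limma adjusted p = 0.0213) and Elavl3 (limma adjusted p = 0.00546) were called as well, which made 6 of 9, against 6.82% of all tested genes called lower in that fit.

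Without replicate 1 of KO day 9, the library lowest for all 10 genes, the 4 calls held, with Nefl at −1.46, Nefm at −1.28 (limma adjusted p = 0.0248), Elavl4 at −0.94 and Stmn2 at −0.76. St18 differed by −1.03 with all libraries and by −0.82 without that one. With 0.1 FPKM added in place of 1, Stmn2 kept its size (−0.79) but was not called (limma adjusted p = 0.425).

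At day 7 none of the 9 was called in either direction, against 1.18% of tested genes called higher and 2.5% called lower. At an unadjusted p under 0.05 there were 3, Elavl3, Map2 and Ina, against 13.9% of all tested genes. The 3 KO libraries lay above the 3 WT libraries for 5 of the 9 genes (Tubb3, Elavl3, Map2, Ina and Nefm), against 11.6% of all tested genes, and the median difference was 0.34. Elavl3 had the lowest adjusted p, with 3.07 ± 0.554 FPKM in WT and 6.86 ± 1.45 in KO (0.94 ± 0.30, limma adjusted p = 0.0904). Ina read 7.12 ± 2.11 and 14.8 ± 2.34 FPKM (0.99 ± 0.41, limma adjusted p = 0.252) and Tubb3 47.1 ± 7.16 and 80.6 ± 9.34 (0.77 ± 0.42, limma adjusted p = 0.471). In a fit of the day 7 libraries alone these 3 genes were called higher in KO, with limma adjusted p of 0.0211 for Elavl3, 0.0259 for Ina and 0.0128 for Tubb3, against 1.37% of all tested genes called higher in that fit. For Elavl4 the sign was the opposite (−0.32 ± 0.17, limma adjusted p = 0.459).

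In mESCs none of the 9 was called, against 0.116% of tested genes called higher and 0.413% lower, and none had an unadjusted p under 0.05. The differences ran from −0.17 (Ina, SE 0.41) to 0.32 (Nefm, SE 0.29), and WT and KO libraries overlapped for all 9. In NSCs, too, none was called, against 2.54% higher and 3.48% lower, and 2 of the 9 had an unadjusted p under 0.05, close to the 18.1% of all tested genes, Stmn2 (−0.44 ± 0.16, limma adjusted p = 0.108) and Nefm (0.69 ± 0.29, limma adjusted p = 0.194). With 0.1 FPKM added the Stmn2 difference, whose KO group is at 0, was −1.83 and was called (limma adjusted p = 0.0175). Both of these were called without replicate 1 of WT NSCs, Stmn2 with a limma adjusted p of 0.00295 and Nefm, at 1.02, with 0.0218. Nefm was also called in NSCs with the replicate number as a block within each stage (limma adjusted p = 0.0485). Without that WT replicate Elavl3 and Myt1 turned from 0.22 to −0.32 and from 0.14 to −0.48, neither called. Tubb3 moved from −0.62 to −1.17 without it, also not called.

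**Figure D3:**
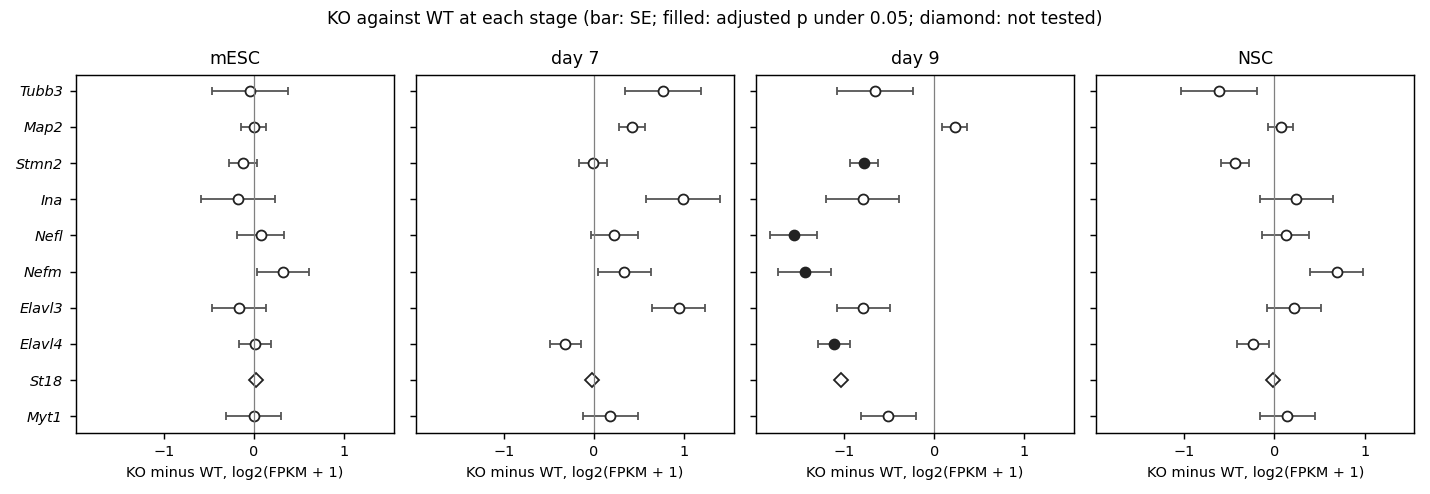
KO minus WT difference in log2(FPKM + 1) (horizontal axis) of each gene at the 4 stages, with the SE as a bar, filled points for an adjusted p under 0.05 and diamonds for St18, which was not tested. Filled points occur at day 9 only, for Stmn2, Nefl, Nefm and Elavl4, all left of 0, while at day 7 the points of Tubb3, Map2, Ina and Elavl3 lie right of 0 and are open.

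Whether the KO effect differed between stages was tested as an interaction. From day 7 to day 9 the KO effect moved downwards for Nefl (by −1.78 ± 0.37, limma adjusted p = 0.0102), Nefm (−1.78 ± 0.41, limma adjusted p = 0.0222) and Elavl3 (−1.73 ± 0.42, limma adjusted p = 0.0316), 3 of the 9, against 0.95% of tested genes called lower and 0.876% higher. All 9 estimates were below 0, from −0.19 for Map2 to −1.78, and those of Ina (−1.78 ± 0.57, limma adjusted p = 0.164) and Tubb3 (−1.42 ± 0.60, limma adjusted p = 0.436) did not pass. None of the 9 was called with 0.1 FPKM added, 6 were in a fit of the 4 groups alone (against 1.43% of all tested genes called lower in it), and between 1 and 4 were on leaving out 1 library, with 1 left, Nefl, without replicate 3 of WT day 7, 2 of KO day 7, 2 or 3 of WT day 9 or 1 of KO day 9. From day 9 to NSCs the effect moved upwards for Nefm (2.13 ± 0.41, limma adjusted p = 0.00273), Nefl (1.68 ± 0.37, limma adjusted p = 0.00773) and Elavl4 (0.87 ± 0.25, limma adjusted p = 0.0386), against 3.12% called higher and 2.72% lower. The day 9 minus day 7 call of Elavl3 was lost without any of 8 of the 12 libraries and that of Nefm without any of 5. The Elavl4 call was lost without any of 7 of the 12 libraries (each of WT day 9, replicate 1 of KO day 9, replicates 2 and 3 of WT NSCs and replicate 1 of KO NSCs), with 0.1 FPKM added and in a fit of the 4 groups alone. The 2 interactions share the day 9 libraries.

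Other genes of the same neuronal programme were taken as 5 lists by role, also chosen with earlier results of these data known. Their counts, and those of the marker lists, are to be read against the shares of all tested genes. At day 9 these were 4.11% called lower in KO and 2.58% higher. The day 7 shares were 2.5% lower and 1.18% higher, and those of NSCs 3.48% lower and 2.54% higher. Of 15 cytoskeletal and axon growth genes, all tested, 5 were lower in KO at day 9 and none was higher: Gap43, Prph, Stmn3, Map6 and Crmp1. The Gap43 libraries, for a growth cone protein, read 118, 164 and 162 FPKM in WT and 35.8, 37.7 and 51.6 in KO (−1.80 ± 0.26, limma adjusted p = 8.49e-05). Prph, which encodes the intermediate filament peripherin of peripheral and motor neurons, read 3.39, 4.81 and 6.27 FPKM in WT and 1.03, 1.01 and 1.12 in KO (−1.47 ± 0.26, limma adjusted p = 0.000778). For both genes the WT and KO libraries were apart. At day 7, Stmn3 and the axonal kinesin Kif1a were higher in KO, and the tubulins Tubb2a and Tubb2b were lower. In NSCs 4 of the 15 were lower in KO, Map1b, Stmn3, Gap43 and Crmp1, led by Map1b (−1.68 ± 0.21, limma adjusted p = 1.81e-05). The list median was 0.11 at day 7, −0.32 at day 9 and −0.33 in NSCs.

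Of 14 tested synapse and secretory vesicle genes (of 15), 6 were lower at day 9, among them Scg2, Sncg, Chga, Snap25 and Chgb. Scg2 (secretogranin II, of dense-core vesicles) read 9.76, 18.9 and 12.3 FPKM in WT and 1.49, 1.54 and 1.87 in KO (−2.43 ± 0.19, limma adjusted p = 1.23e-08). Scg2 averaged 1.99 FPKM over the 24 libraries. It passed the filter only through WT day 9, the group where it was higher, so its call is not independent of the filter. Sncg (γ-synuclein) read 18.1, 24.8 and 23.6 FPKM in WT and 5.42, 5.97 and 9.54 in KO (−1.56 ± 0.27, limma adjusted p = 0.000564). Neither gene's groups overlapped. At day 7 Vamp2 was lower, in NSCs Syt1 and Chga were, and in mESCs Gng3 was. The list median was 0.06 at day 7, −0.64 at day 9 and −0.26 in NSCs.

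Of 9 tested neuronal transcription factors (of 10), Insm1 and Nhlh1 were lower in KO at day 9. Insm1, a zinc-finger factor of newborn neurons, read 42.8, 54.3 and 43.1 FPKM in WT and 14.7, 23.2 and 23.6 in KO (−1.17 ± 0.21, limma adjusted p = 0.00091). Ebf1 had the next largest difference of that list and was not called (−0.97 ± 0.40, limma adjusted p = 0.192), though its KO libraries (5.36, 9.03 and 11.4 FPKM) lay below those of WT (14.5, 19.0 and 18.1). None of the 9 was called at day 7, and Insm1 was also lower in NSCs (−1.11 ± 0.21, limma adjusted p = 0.00221). The list median was −0.28 at day 9 and −0.16 in NSCs.

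Of 8 tested neuronal RNA-binding proteins (of 9), Srrm4 and Elavl2 were lower in KO at day 9, and Srrm4 and Nova2 were higher at day 7. Srrm4, a splicing factor of neural microexons, read 8.55, 8.61 and 7.93 FPKM in WT at day 9 and 4.10, 5.14 and 7.08 in KO (−0.57 ± 0.16, limma adjusted p = 0.0352). Celf3 had the second largest difference (−0.47 ± 0.33) without being called (limma adjusted p = 0.537), and it was at −0.19 without replicate 1 of KO day 9. The list median was 0.55 at day 7, −0.43 at day 9 and −0.05 in NSCs, where none of the 8 was called.

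Only 4 of 14 genes of neurotransmitter identity were high enough to be tested. Slc18a3, which encodes the vesicular acetylcholine transporter, was lower in KO at day 9, with 7.98, 12.8 and 11.3 FPKM in WT and 0.65, 1.19 and 1.32 in KO (−2.50 ± 0.17, limma adjusted p = 2.12e-09), groups far apart. Slc18a3 averaged 1.58 FPKM over the 24 libraries. It passed the filter only through WT day 9, the group where it was higher, so its call is not independent of the filter. Its entry has the same coordinates as that of Chat, the acetylcholine-synthesizing enzyme gene, and reads of 1 could have been counted for the other. Chat, below the filter, read 1.97, 2.56 and 2.74 FPKM in WT and 0.14, 0.34 and 0.15 in KO. None of the 4 was called in NSCs. Ddc, an enzyme of dopamine and serotonin synthesis, was lower in KO at day 7 (−1.11 ± 0.18, limma adjusted p = 0.000405) but was not called at day 9 (−0.45 ± 0.18, limma adjusted p = 0.152).

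Leaving out the libraries that stood apart changed several of these counts. The shares of all tested genes printed above are from the main fit, and those of these fits were not counted. Without replicate 1 of KO day 9, the genes lower in KO at day 9 were 3 of 15 cytoskeletal genes (Map6 and Crmp1 lost), 6 of 14 synapse genes, 1 of 9 transcription factors (Nhlh1 lost), none of 8 RNA-binding proteins and 1 of 4 of neurotransmitter identity. In the same order, the list medians were then −0.29, −0.52, −0.12, −0.24 and −0.23. Without replicate 1 of WT NSCs, the genes lower in KO in NSCs were 7 of 15 cytoskeletal genes, 6 of 14 synapse genes, 1 of 9 transcription factors and 1 of 8 RNA-binding proteins (Celf3). Their list medians in NSCs were then −0.33, −0.42, −0.09 and 0.02, in that order.

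**Figure D4:**
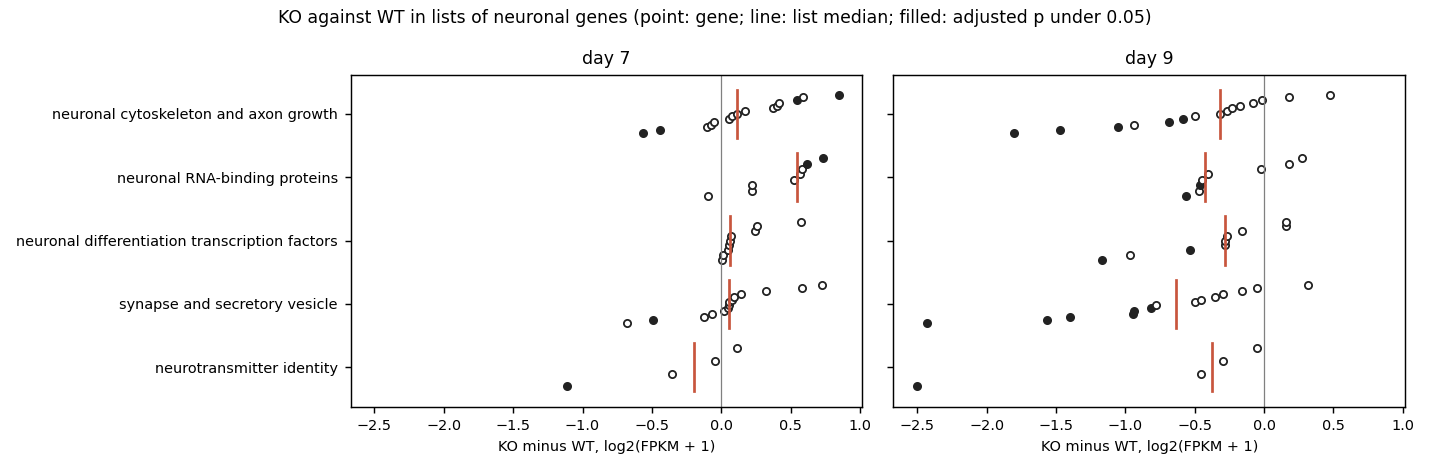
KO minus WT difference in log2(FPKM + 1) (horizontal axis) at day 7 (left) and day 9 (right) of each tested gene (point) of 5 lists of neuronal genes (rows), with the list median as a line and filled points for an adjusted p under 0.05. At day 9 all filled points lie left of 0, down to −2.50 for Slc18a3, and all 5 list medians are below 0. Slc18a3 and Scg2 passed the filter only through WT day 9. At day 7 filled points lie on both sides.

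Markers of other cell types also moved with genotype at the stages where the neuron genes differed, and their part in these results was not tested. Of 8 neural progenitor markers, Sox1 (0.74 ± 0.19, limma adjusted p = 0.0197) and Pax6 (0.83 ± 0.24, limma adjusted p = 0.0368) were higher in KO at day 9, and the summed FPKM of the 8 was 1237 to 1525 in WT and 1360 to 1602 in KO. Nes (−0.39 ± 0.25, limma adjusted p = 0.482) and Notch1 (−0.49 ± 0.17, limma adjusted p = 0.105) of the same list were not called, though their KO libraries lay below those of WT. Sox2, not called either, lay the other way, at 136.5 to 165.2 FPKM in WT and 174.1 to 199.1 in KO. Of 4 tested neural crest markers (of 5), 3 were lower in KO at day 9, Ets1 and Ngfr among them, and none was higher, with a summed level of 74.2 to 119 FPKM in WT and 50.2 to 62.1 in KO. The crest marker below the filter, Tfap2b, lay the other way, at 0.85, 0.21 and 0.34 FPKM in WT and 4.32, 2.93 and 5.84 in KO at day 9, without overlap. Of 4 tested astrocyte markers (of 5), Slc1a3 was lower (−1.50 ± 0.25, limma adjusted p = 0.000381), and the sum was 25.9 to 30.8 FPKM in WT and 6.97 to 13.1 in KO, while Gfap, Aqp4 and S100b were each below 1 FPKM in all 6 day 9 libraries. Slc1a3 is also made by radial glia. The 6 pluripotency markers summed to 56.0 to 84.0 FPKM in WT and 72.2 to 118 in KO at day 9, and none was called. Of 5 tested oligodendrocyte markers (of 6), Mbp was higher in KO at day 9 (0.73 ± 0.19, limma adjusted p = 0.0163), with a summed level of 12.01 to 13.8 FPKM in WT and 14.4 to 16.2 in KO and a list median of 0.03. Pdgfra, not called (−0.68 ± 0.36, limma adjusted p = 0.36), had its KO libraries below those of WT. Without replicate 1 of KO day 9, Sox1, Mbp and Ets1 were not called at day 9.

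The summed endoderm and mesoderm markers were higher in every WT library than in any KO library at both days. The 6 endoderm markers, 2 of them tested (Foxa2 and Sox17), summed to 20.1 to 51.1 FPKM in WT and 0.70 to 1.48 in KO at day 7, and to 27.2 to 51.9 and 2.68 to 11.7 at day 9. Foxa2, which also marks the floor plate, made up most of the day 9 sum and was lower in KO (−2.85 ± 0.40, limma adjusted p = 7.1e-05). Sox17 was lower at day 7 (−2.69 ± 0.27, limma adjusted p = 1.53e-06) but was not called at day 9 (−0.73 ± 0.27, limma adjusted p = 0.135), while Afp and Ttr were at 0 in at least 2 of the 3 KO libraries. Of the 6 mesoderm and muscle markers 2 were tested, T and Meox1, both lower in KO at both days, although their day 9 calls were lost without replicate 1 of KO day 9 (limma adjusted p = 0.0872 and 0.0894). Tbx6, below the filter, overlapped between WT and KO at day 9, and the list summed to 56.8 to 155 FPKM in WT and 1.87 to 3.49 in KO at day 7. At day 9 these sums were 15.8 to 43.5 and 3.93 to 15.1 FPKM, and Myod1 and Myog were at 0 in 2 of the 3 WT libraries each. The summed FPKM of the 10 neuron genes was 134 to 182 in WT and 187 to 223 in KO at day 7, where KO was higher, and 932 to 1075 in WT and 430 to 620 in KO at day 9, where WT was higher.

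In NSCs, too, markers moved with genotype, and their part in the differences there was not tested. Of the 8 neural progenitor markers Hes1 was higher in KO and Sox2 and Vim were lower, with a list median of 0.07. The sum of the 8 was 1855 to 1939 FPKM in WT and 1343 to 1494 in KO, without overlap. Vim alone averaged 1384 FPKM in WT and 947 in KO, so it made up most of that sum. Of the 4 tested astrocyte markers S100b was higher (list median 0.97, sum 177 to 420 FPKM in WT and 384 to 481 in KO), and of the 5 tested oligodendrocyte markers Sox10 and Cnp were lower (list median −0.76), while the sum was 1144 to 1292 FPKM in WT and 1298 to 1522 in KO. Olig1, not called, had the highest level of that list, with a mean of 313 FPKM over the 24 libraries. Replicate 1 of WT NSCs stood apart, at 0.76 FPKM of Sox10 where the other WT libraries read 9.17 and 6.75 and the KO libraries 0.30 to 0.86. Without it Sox10 differed by −2.48 instead of −1.70, S100b and Vim were not called, and Sox1 (higher) and Pdgfra (lower) were called as well. The list medians were then 0.53 for astrocyte, −1.29 for oligodendrocyte and −0.16 for neural progenitor markers. Endoderm markers summed to between 0 and 0.060 FPKM in WT NSCs and 1.59 to 4.00 in KO. Pluripotency markers summed to 10.5 to 12.5 FPKM in WT and 5.67 to 10.0 in KO, and no tested gene of either list was called. The summed FPKM of the 10 neuron genes overlapped in NSCs, at 155 to 196 in WT and 156 to 194 in KO.

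The genes whose levels followed St18 most closely over the 24 libraries were Gm16551 (Pearson r = 0.993 of log2(FPKM + 1)), Onecut1 (0.989), D930028M14Rik (0.986), Ppp1r17 (0.983) and Neurod4 (0.982). All 5 averaged below 1 FPKM at day 7 and in NSCs, in both genotypes, and at day 9 they averaged 6.55 to 46.8 FPKM in WT and 3.97 to 17.6 in KO. Onecut1 is a homeobox and Neurod4 a proneural helix-loop-helix transcription factor. Among the members, r with St18 was 0.978 for Elavl4, 0.883 for Elavl3, 0.864 for Ina, 0.847 for Nefm and 0.824 for Tubb3, and it was lower for Nefl (0.640), Myt1 (0.558), Stmn2 (0.314) and Map2 (0.132). The mean of the 10 members was followed most closely by Gm16551 (0.979), Wscd2 (0.976), Nxph4 (0.975), Nhlh1 (0.971) and Bhlhe23 (0.971). These correlations describe 24 libraries that share 4 stages and 2 lines, and genes with a peak at day 9 score high by construction. St18 was also chosen for its lower KO level at day 9. Lower KO averages among genes picked for likeness to it are thus built in too.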

How the data were processed

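Poly(A) RNA was sequenced by the authors from stranded libraries as 80-base single-end reads. Reads were trimmed with Trim Galore 0.6.6, aligned to UCSC mm9 with TopHat2 2.1.1, cleared of ribosomal RNA and X-chromosome reads and passed to Cuffdiff. What the authors deposited is 1 FPKM value for each gene in each library; how libraries were normalized and whether strand was used in counting are not given in the sources used here. Of 36 FPKM columns, 12 belong to no sample used here and were left out. The table's status column was read only to leave out genes with failed estimates.

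The members and all gene lists were chosen with earlier results of these data known, and St18 was selected on its day 9 peak and its lower KO level, so it was given no test. Outside X and Y, 12105 of 22028 genes averaged 1 FPKM or more in the 24 libraries, had no failed estimate, and were fitted as log2(FPKM + 1) in limma 3.58.1 (statmod 1.5.0, R 4.3.3) with 8 group means, all 24 libraries sharing 1 estimate of the spread, and robust, trended eBayes. Tests are two-sided with Benjamini-Hochberg adjustment over all 12105 genes. The paper calls the replicates independent experiments; an exact permutation test of 3 against 3 libraries cannot give a p below 0.1. Named genes were the 10 members, Smchd1, the 2 tested genes with the largest day 9 KO difference in each of 5 neuronal lists, the called markers, and the 5 genes most correlated with St18 and with the mean of the members; the other called genes of the 5 lists and Chat were named after their values were seen. Of the lists, 2 called genes are counted but not named here, and the markers not called were named after their values were seen. The fit was tested on simulated data. Same-numbered WT and KO libraries deviated together in mESCs (correlations of deviations from group means 0.289, 0.435 and 0.141) and NSCs (0.335, 0.184 and 0.24), but not at day 7 (0.038 to 0.096) or day 9 (−0.107 to 0.029); the numbers come from the sample titles. Alternatives were another pseudocount, no filter, libraries scaled to the same sum, a replicate block, a fit of the compared groups alone and leaving out each library. A block within each stage, and the lists without 2 libraries that stood apart, were added after seeing the data.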

Additional observations from a re-analysis of the deposited data

Results flagged for a closer look

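The KO effect differed between neighbouring stages in 6 cases over 4 of the 9 tested members, by a limma test of the difference itself. From day 7 to day 9 it moved by −1.73 for Elavl3 (limma adjusted p = 0.0316), by −1.78 for Nefl (limma adjusted p = 0.0102) and by −1.78 for Nefm (limma adjusted p = 0.0222). From day 9 to NSCs it moved by 0.87 for Elavl4 (limma adjusted p = 0.0386), by 1.68 for Nefl (limma adjusted p = 0.00773) and by 2.13 for Nefm (limma adjusted p = 0.00273). With 0.1 FPKM added, none of the day 9 minus day 7 calls held, that of Elavl3 was lost on leaving out any of 8 of the 12 libraries and that of Nefm on any of 5, and that of Elavl4 in NSCs was lost on any of 7 of the 12.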

How the results depend on the processing

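Counts out of 9 tested members at day 7 (none called) became 1 with 0.1 FPKM added (Map2), 3 in a fit of the compared groups alone and 2 with a replicate block within each stage (Elavl3, Ina), an alternative chosen after seeing the data. In NSCs (none called) they became 1 with 0.1 FPKM added (Stmn2), 1 with that block (Nefm) and 0 to 2 on leaving out 1 library. The KO effect at day 9 minus that at day 7 (3 called) became 0 with 0.1 FPKM added, 6 in the fit of the compared groups, 6 with the block within each stage and 1 to 4 on leaving out 1 library. At day 9 (4 called) they became 3 with 0.1 FPKM added (Stmn2 lost), 6 in the fit of the compared groups (Tubb3 and Elavl3 added) and 5 with the block within each stage (Elavl3 added), and the KO effect in NSCs minus that at day 9 (3 called) became 4 with that block (Elavl3 added). With that block the shares of all tested genes called were 1.84% higher at day 7, 5.69% lower at day 9, 4.29% higher in NSCs, 1.26% lower in the first of these interactions and 4.75% higher in the second. The planned replicate block, with numbers shared over all groups, changed none of these counts. Scaling libraries to the same sum changed no count of members, but moved the median of all tested genes by 0.19 and 0.18 (log2) from mESCs to day 7 in WT and KO, 0.12 from day 7 to day 9 in WT, 0.21 from day 9 to NSCs in KO and 0.15 in the interaction of NSC and day 9. With it the share of calls that were higher went from 38.6% to 22.7% for KO against WT at day 9, from 42.2% to 54.4% in NSCs, from 49.1% to 66.3% and 48.1% to 63.3% from mESCs to day 7, from 54.6% to 72.2% for WT day 9 against day 7, from 45.6% to 61.6% for KO NSCs against day 9 and from 53.5% to 73.9% in that interaction. Leaving out 1 library turned the sign of some KO differences that were not called: in mESCs they then ran from −0.53 to 0.36 for Tubb3, −0.031 to 0.093 for Elavl4, −0.034 to 0.036 for Map2, −0.78 to 0.44 for Ina and −0.30 to 0.40 for Nefl, at day 7 from −0.12 to 0.12 for Stmn2, and in NSCs from −0.32 to 0.54 for Elavl3, −0.035 to 0.14 for Map2, −0.48 to 0.49 for Myt1 and −0.015 to 0.35 for Nefl. St18, with no test, moved from −1.03 to −1.19 at day 9 with 0.1 FPKM added. The cause of these changes was not tested.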
